A study of Mus musculus with 2 samples.

Results

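Interstitial progenitors are the fibroblast-like cells of adipose tissue that carry Pi16 and Dpp4, and they are described here in visceral fat of young female mice. Nuclei were first gated as fibro-adipogenic progenitors (FAP) by UMIs, the molecules counted once each by their identifier, of 7 stromal genes (Col1a1, Col1a2, Col3a1, Lama2, Bicc1, Abca8a and Nova1, at least 6 together), with fewer than 10 UMIs of 8 adipocyte genes and at most 1 UMI of 4 mesothelial, endothelial and macrophage genes. The members were chosen by their own measured UMIs of Pi16, Dpp4, Fbn1, Sema3c and Cd55, whose sum is called P, and of Col15a1, Cxcl14 and Hsd11b1, whose sum is called C. A FAP nucleus with a P of at least 3 that was also above C was a member, and 829 of 1322 FAP nuclei were, out of 15058 nuclei that passed the filters. The remaining 493 FAP nuclei, called the other FAP, were the comparison.

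The study profiled single nuclei of subcutaneous and visceral white fat from young and aged female C57BL/6J mice. Used here were the 2 libraries of visceral (gonadal) fat from animals aged 2 months, 1 library from each of 2 mice. The sample labels name 10x Genomics and adipocytes and the series text speaks of subcutaneous depots, whereas the protocol and the methods describe Singleron GEXSCOPE nuclei of whole fat, and nuclei of several lineages were present. The libraries stood apart in size and quality. Replicate 1 held 2833 passing nuclei with 8466237 UMIs, a median of 2221 UMIs and 6.20% mitochondrial UMIs, and replicate 2 held 12225 nuclei with 48068273 UMIs, a median of 2726 UMIs and 0.621%. Values are therefore given for replicate 1 and then replicate 2. No barcode was shared between the libraries among the FAP, although 27 were among all passing nuclei.

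White fat keeps its progenitors in the connective tissue between and around the lobules and along the vessels. Interstitial progenitors lie in the fluid-filled collagen and elastin network of that tissue, are regarded as an early stage of the adipogenic lineage, and give rise to committed preadipocytes that stand closer to the vessels and express more Pparg. TGF-beta and Wnt signals are known to hold progenitors back from adipogenesis.

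Among FAP nuclei, members made up 74.6% in replicate 1 (135 of 181, 95% exact binomial interval 67.6 to 80.8) and 60.8% in replicate 2 (694 of 1141, 57.9 to 63.7), a mean of 67.7% ± 9.73 (SD, n = 2). They were 4.77% and 5.68% of all passing nuclei. The intervals of the replicates did not overlap, but they cover only the counting of nuclei within a library and not the spread between mice. The share also moved with depth: FAP nuclei with 1000 to 1500 UMIs were members in 58.0% and 39.4% of cases, and those with over 4000 UMIs in 87.5% (16 nuclei) and 89.6%. Members had a median of 2092 and 2392.5 UMIs, and the other FAP 1569 and 1843. After each FAP nucleus was thinned to 1000 UMIs, 76.2% and 65.5% still had a P of at least 1 that was above C, against 81.2% and 74.1% before thinning.

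The genes of the rule, which chose the members and are given as a description without a test, were present in unequal amounts. Levels are in CPM, the UMIs of a gene per 1000000 UMIs of the group's nuclei in a library. Pi16, a secreted peptidase inhibitor homologue, reached 2657 and 974 CPM in members and 57.8 and 31.1 CPM in the other FAP. Dpp4, the membrane serine protease CD26, was at 1032 and 781 CPM in members and at 69.3 and 80.0 CPM in the other FAP. Sema3c, a secreted semaphorin, was the most abundant of the 5 in both libraries, with 2734 and 1701 CPM against 116 and 102 CPM. Fbn1, which encodes the microfibril protein fibrillin-1, had 1435 and 978 CPM in members and the highest remainder of the 5 in the other FAP, 208 and 169 CPM. Cd55, which protects cells from complement, had 1367 and 830 CPM against 69.3 and 65.6 CPM. All 5 were thus more abundant per UMI in members of replicate 1 than in those of replicate 2.

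Of the genes of C, Col15a1, a collagen chain of the basement membrane zone, was at 105 and 100 CPM in members and at 762 and 449 CPM in the other FAP. Hsd11b1, the enzyme that regenerates active glucocorticoid, had 43.4 and 36.1 CPM against 127 and 119 CPM. The chemokine gene Cxcl14 was at 0 UMIs in members of replicate 1, where 3 UMIs would be 9.30 CPM, and at 4.93 CPM in replicate 2, against 104 and 40.0 CPM in the other FAP. Members were low in all 3. C itself kept out few nuclei, 13 with a P of at least 3 that was not above C. Of the other FAP, 34 of 46 and 371 of 447 had a P and a C both under 3.

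**Figure D1:**
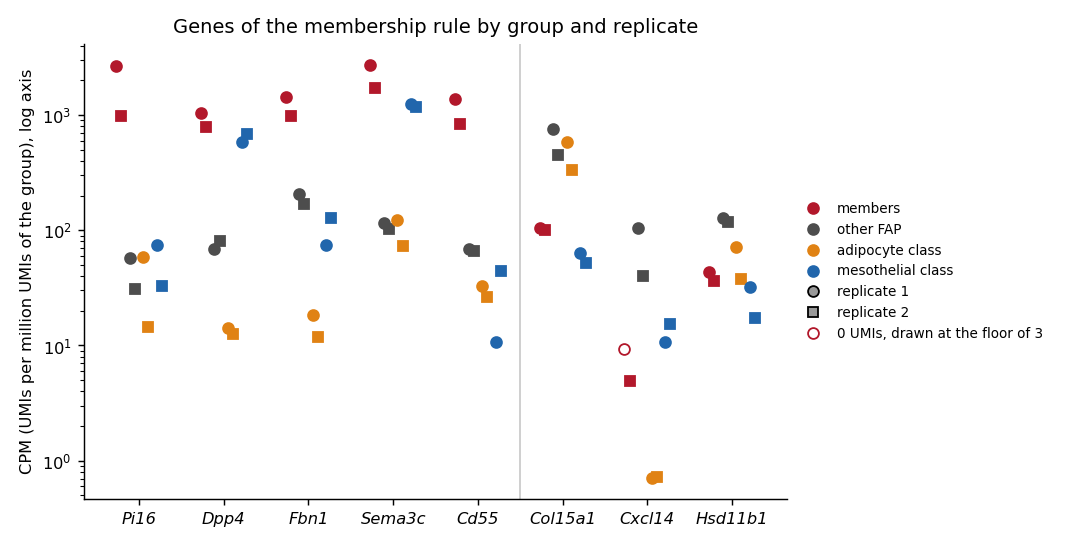
Level of the 8 genes that form P (left of the line) and C (right of it), in CPM on a log axis, in members, the other FAP, the adipocyte class and the mesothelial class; circles are replicate 1 and squares replicate 2, with no error bars. Pi16 stands at 2657 and 974 CPM in members and below 100 CPM in the other groups, whereas Dpp4 (586 and 688 CPM) and Sema3c (1258 and 1169 CPM) are also high in the mesothelial class.

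A UMI of Pi16 was seen in 76.3% and 51.9% of members (median 2092 and 2392.5 UMIs). In an adipocyte class, nuclei with at least 10 adipocyte UMIs that should lack the gene, it was seen in 17.3% and 7.01% (median 3032 and 5235 UMIs), and in a macrophage class in 27.7% and 5.75%. Free RNA and doublets were not told apart. It was seen in 10.9% and 5.59% of the other FAP, whose nuclei held fewer UMIs. With each nucleus thinned to 1000 UMIs the shares were 65.9% and 39.8% in members, 8.70% and 2.91% in the other FAP, 6.63% and 1.62% in the adipocyte class and 21.3% and 1.15% in the macrophage class. Pi16 helped to choose the members, so their higher share follows from the rule. Dpp4 and Sema3c were not restricted to progenitors: a mesothelial class, nuclei with at least 3 UMIs of Upk3b and Msln, held 586 and 688 CPM of Dpp4 and 1258 and 1169 CPM of Sema3c. Pi16 in that class was at 74.6 and 32.6 CPM. Both Pi16 and Dpp4 were seen in 59.3% and 36.02% of members, and in 0 of 46 (which allows up to 7.71%, exact interval) and 0.895% of the other FAP. Both genes count toward P, so this gap too follows from the rule.

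Members differed widely among themselves. The median P was 17 in replicate 1 and 9 in replicate 2, with maxima of 138 and 113. All 5 genes were seen in 41.5% and 23.5% of members and in 0 of the other FAP. The rule nearly fixes this 0. A nucleus with all 5 genes has a P of at least 5 and is left out only if its C is at least as high. Just inside the threshold, 11 and 86 members had a P of exactly 3, and just outside it 9 and 108 of the other FAP had a P of 2. A further 160 of the other FAP had a P of 1 and 203 a P of 0, while 13 had a P of at least 3 that was not above C. At the other end, 85 and 336 members had a P of at least 10. Membership is therefore a range of P with many nuclei near its lower limit.

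Because Pi16 and Dpp4 name the population, the 250 bases before each gene's start are shown, from RefSeq on GRCm38.p6 and written 5′ to 3′ on the strand of the gene. Capitals mark matches to TATAAA and to the EBF motif, which is TCCC and GGGA with any 2 bases between them. The window of Pi16 is chr17:29318632-29318881 on the plus strand and held no match, and that of Dpp4 is chr2:62412232-62412481 on the minus strand, with TATAAA 227 bases and the EBF motif 115 bases before the start.
Pi16: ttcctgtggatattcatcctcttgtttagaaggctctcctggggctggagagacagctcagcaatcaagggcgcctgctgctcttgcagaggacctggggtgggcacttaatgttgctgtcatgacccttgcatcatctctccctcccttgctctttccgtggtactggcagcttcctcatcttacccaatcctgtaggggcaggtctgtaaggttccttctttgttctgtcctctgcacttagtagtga
Dpp4: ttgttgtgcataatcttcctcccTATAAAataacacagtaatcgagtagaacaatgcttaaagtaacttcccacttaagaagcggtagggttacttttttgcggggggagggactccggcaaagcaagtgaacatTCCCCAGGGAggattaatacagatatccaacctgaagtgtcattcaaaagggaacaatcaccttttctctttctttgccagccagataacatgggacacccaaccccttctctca

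In the comparison of members with the other FAP, the 27 genes of the rule were left out and 9475 genes were tested by edgeR's quasi-likelihood test on UMIs summed per library and group, with the library as a block and Benjamini-Hochberg adjustment. A gene is called higher or lower at an adjusted p under 0.05. There were 145 genes higher in members (1.53% of those tested) and 63 lower (0.665%), and all of them had the same direction in both replicates. A fitted log2 fold change of at least 1 in size was reached by 131 and 58 of them, with medians of 1.56 and -1.47, beside a median of 0.02 over all genes tested. The genes tested were read from the same nuclei as the genes that chose the members. The calls rest on the comparison within each library: without the block, edgeR called 0 higher and 0 lower (286 and 180 at an unadjusted p under 0.05), and DESeq2 with the block called 78 and 30.

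Among the 10 called genes of largest rise with at least 20 UMIs in members of each library, Ccn3, a matricellular CCN protein, had the highest fitted value, which is no bound, log2 5.004 ± 0.73 (SE, n = 2 libraries, edgeR quasi-likelihood, Benjamini-Hochberg adjusted p = 0.000364). Its level was 136 and 59.6 CPM in members, while the other FAP held 0 and 2 UMIs. With the floor of 3 UMIs per library in place of 0 it was 3.94-fold higher in replicate 1 (lower limit of the counting interval 3.07). In replicate 2 it was 26.8-fold higher (counting interval 7.25 to 224). Adamts16, a secreted metalloprotease, was at 481 and 210 CPM in members and at 0 and 21.1 CPM in the other FAP. With the floor in place of 0 it was 13.9-fold higher in replicate 1 (lower limit of the counting interval 11.1). Opcml, a cell adhesion protein of the IgLON family, was by far the most abundant of the 10 with the highest fold, at 2998 and 2370 CPM against 335 and 427 CPM (log2 2.79 ± 0.22, edgeR quasi-likelihood, Benjamini-Hochberg adjusted p = 9.66e-07). Opcml spans chr9:27702071-28837232 of GRCm39.

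The other genes of that group were scarce in the other FAP. Dact2, an intracellular modulator of Wnt and TGF-beta signals, had 21 and 60 UMIs in members against 1 and 1, ratios of 5.64 (counting interval 0.907 to 233) and 29.5 (5.10 to 1186). Wnt10b, a Wnt ligand that inhibits adipogenesis, had 25 and 50 UMIs against 1 and 1, ratios of 6.71 (1.10 to 276) and 24.6 (4.22 to 992). Wide intervals thus go with these ratios, and the direction was the same in both libraries. Tmem158, a membrane protein, was at 198 and 81.0 CPM against 11.6 and 11.1 CPM. Efhd1, a mitochondrial calcium-binding protein, was at 149 and 86.5 CPM against 0 and 15.6 CPM. With the floor in place of 0 it was 4.29-fold higher in replicate 1 (lower limit of the counting interval 3.36). Uchl1, a deubiquitinase, Has2, a hyaluronan synthase, and Ackr2, a scavenger receptor for chemokines, were each at 0 UMIs in the other FAP of replicate 1, with 22, 24 and 20 UMIs in members. With the floor in place of 0 the ratios there are only 1.97-fold, 2.15-fold and 1.79-fold (lower limits of the counting intervals 1.47, 1.62 and 1.33). The calls of Wnt10b, Has2 and Ackr2 ended when members and other FAP were matched for total UMIs, with fold changes that stayed large (log2 3.49, 2.66 and 3.01, from 3.87, 2.86 and 3.15). The same holds for Adamts16 with DESeq2 (5.18, from 3.76) and for Uchl1 (3.503, from 3.41), Wnt10b (3.41) and Ackr2 (3.32) under stricter limits on adipocyte and lineage UMIs.

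**Figure D2:**
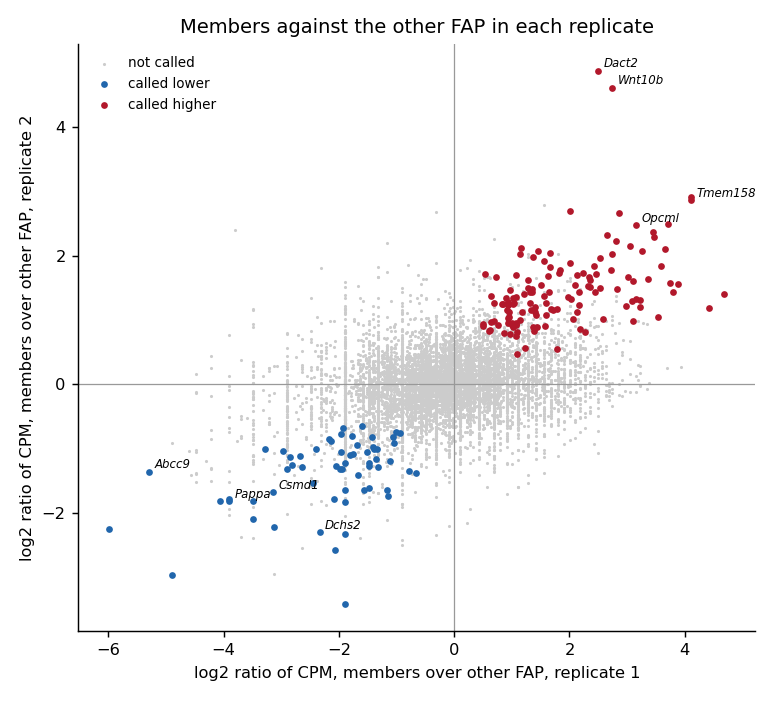
Each point is a gene, with the log2 ratio of CPM in members over the other FAP in replicate 1 on the x axis and in replicate 2 on the y axis, for the 8491 tested genes with at least 1 UMI in every group (131 of the 145 called higher in red, 61 of the 63 called lower in blue). The called genes lie to the upper right and lower left, with Opcml, Tmem158, Dact2 and Wnt10b among those named.

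Genes that the field assigns to interstitial progenitors, and that the rule did not use, were higher as a group. Of 22 such genes 19 were tested, 17 were higher and 0 lower, against 1.53% and 0.665% of all genes, and the list's median log2 fold change was 2.37 beside 0.02 over all genes tested. The 22 genes together came to 12968 and 9640 CPM in members and to 3015 and 3006 CPM in the other FAP. The transcription factor gene Creb5 had 1519 and 1160 CPM in members against 139 and 224 CPM (log2 2.74 ± 0.25), and Smpd3, a neutral sphingomyelinase, 586 and 506 CPM against 80.9 and 80.0 CPM (2.76 ± 0.26). The ratio of Smpd3 was alike in the libraries (log2 2.86 and 2.66), and that of Creb5 was larger in replicate 1 (3.45 and 2.37). Gfpt2, an enzyme of the hexosamine pathway, had 794 and 571 CPM against 127 and 113 CPM (2.48 ± 0.24). Ackr3, a scavenging receptor for Cxcl12, had 880 and 431 CPM against 219 and 66.7 CPM (2.52 ± 0.25), and Anxa3, an annexin, 301 and 289 CPM against 23.1 and 51.1 CPM (2.71 ± 0.32).

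Some matrix genes of the same list were higher as well. Pcolce2, an enhancer of procollagen processing, had 865 and 532 CPM in members against 150 and 136 CPM (log2 2.20 ± 0.24), and the microfibril gene Mfap5 533 and 409 CPM against 150 and 119 CPM (1.86 ± 0.24). Igfbp6, which binds IGF2, had 1212 and 615 CPM against 404 and 327 CPM (1.25 ± 0.22). The other higher genes of the list were Limch1 (2.37), Ly6c1 (2.00), Cmah (1.95), Pcsk6 (1.71) and Heg1 (1.13), with Opcml, Dact2, Efhd1 and Uchl1 from above. The value of Ly6c1 was 4.69 in replicate 1, with 1 UMI in the other FAP, and 1.40 in replicate 2, those of Limch1 3.06 and 2.15 and those of Pcsk6 2.35 and 1.51, and Cmah was at 0 UMIs in the other FAP of replicate 1 and at 1.64 in replicate 2. Wnt2 (log2 0.72 ± 0.71, 13 and 30 UMIs in members) and Tnxb (0.36 ± 0.19, 1060 and 848 CPM against 901 and 692 CPM) were tested and not called, and Bmp7, Stmn4 and Akr1c18 had too few UMIs to be tested. With nuclei matched for depth 17 genes of the list were again called, with DESeq2 12, without Cmah (3.41) and Pcsk6 (1.84) and without Efhd1, Dact2 and Uchl1, for which it gave no adjusted p.

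The list also rose with P inside the members, given as a description. Its summed level in nuclei with a P of 0, of 1 to 2, of 3 to 9 and of at least 10 was 2148, 3034, 6726 and 15404 CPM in replicate 1 and 2699, 3255, 5388 and 12944 CPM in replicate 2. The first of these groups held 17 nuclei in replicate 1, and 186 in replicate 2. Nuclei with a P of 1 to 2 thus held more of the list than those with no UMI of the 5 genes, in both libraries. Members with a P of 3 to 9 lay between the nuclei with a P of 1 to 2 and the members with more. Over the same groups the committed genes described next were at 8502, 8836, 6825 and 3564 CPM in replicate 1 and at 4800, 4562, 3561 and 2645 CPM in replicate 2. Adipocyte markers were at 7160, 8300, 6185 and 4724 CPM and at 5288, 4593, 4407 and 3426 CPM. Both sums were thus lower in members with more P, and in replicate 2 they fell throughout. In replicate 1 both were higher at a P of 1 to 2 than at a P of 0. Total UMIs per nucleus also differed along P, with medians of 1607 and 1822 UMIs at a P of 0 and of 2335 and 2906 UMIs at a P of at least 10, and their part in this order was not tested.

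**Figure D3:**
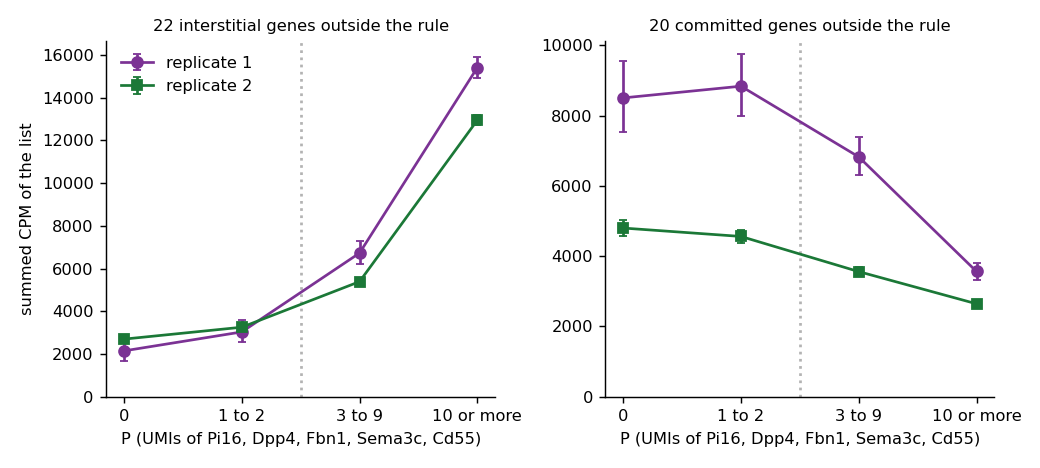
Summed CPM of 22 interstitial genes (left) and of 20 committed genes (right), none of them used by the rule, in FAP nuclei grouped by P, with exact 95% Poisson intervals that cover counting error only; 13 nuclei whose P was at least 3 but not above C are left out, and the dotted line is the threshold of membership. The interstitial genes go up to 15404 and 12944 CPM and the committed genes down to 3564 and 2645 CPM at a P of at least 10.

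Genes of committed preadipocytes and of the Cd142+ regulatory cells leaned the opposite way by smaller amounts. Of 20 genes 16 were tested, 0 were higher and 6 lower, against 1.53% and 0.665% of all genes, with a median log2 fold change of -0.77 beside 0.02 over all genes tested. Pparg, the master regulator of adipogenesis, had 180 and 274 CPM in members against 370 and 517 CPM in the other FAP (log2 -0.89 ± 0.22, edgeR quasi-likelihood, Benjamini-Hochberg adjusted p = 0.0416). Lpl, the lipase that frees fatty acids for uptake, had 880 and 481 CPM against 1779 and 807 CPM (-0.78 ± 0.19). The basement membrane collagen genes Col4a1 (-0.97 ± 0.22) and Col4a2 (-1.28 ± 0.26) were at 372 and 242 CPM against 1120 and 381 CPM, and at 143 and 144 CPM against 624 and 267 CPM. For both collagens the gap was wider in replicate 1. The adhesion receptor gene Vcam1 (-1.15 ± 0.29) and Sparcl1 (-0.84 ± 0.20), a matricellular protein, were lower too, while the fatty acid transporter gene Cd36 (-0.58 ± 0.26) was not called. Of 14 alternative settings the call of Vcam1 ended in 11, those of Pparg and Lpl in 9 each, that of Sparcl1 in 7, that of Col4a1 in 4 and that of Col4a2 in 2. With depth-matched nuclei Pparg (-0.64) and Vcam1 (-0.95) were lost, and with a P of at least 2 Lpl (-0.55) and Vcam1 (-1.11). A FAP sum of at least 10 ended Pparg (-0.82), Lpl (-0.77), Vcam1 (-0.72) and Sparcl1 (-0.64), and no filter on low counts ended Pparg (-0.72), Lpl (-0.61), Vcam1 (-0.98) and Sparcl1 (-0.68). Stricter limits on adipocyte and lineage UMIs ended Col4a1 (-0.63) and Vcam1 (-1.17) beside Pparg and Lpl, a rule by rate, with a P of at least 2 and at least 1 per 1000 UMIs, ended Lpl (-0.51), and leaving out nuclei with mesothelial UMIs ended Vcam1 (-0.82). DESeq2 called only Col4a2, with fold changes as large for Pparg (-0.90), Lpl (-0.80), Vcam1 (-1.19), Col4a1 (-1.02) and Sparcl1 (-0.86).

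Among called genes with at least 20 UMIs in the other FAP of each library, the 10 lowest in members by fold change were led by Abcc9 (log2 -2.33 ± 0.59), a subunit of potassium channels that also marks pericytes. Its ratio was log2 -5.29 in replicate 1, with 2 UMIs in members, and -1.36 in replicate 2. Thsd7a, a thrombospondin-domain protein, was the most abundant of them, with 316 and 412 CPM in members against 1340 and 1418 CPM (-1.82 ± 0.20, edgeR quasi-likelihood, Benjamini-Hochberg adjusted p = 2.22e-05). It is also a transcript of the endothelial class, at 1230 and 771 CPM. Pappa, the protease that releases IGFs from Igfbp4, had 18.6 and 60.7 CPM against 277 and 214 CPM (-2.24 ± 0.36), and the protocadherin gene Dchs2 52.7 and 48.7 CPM against 266 and 241 CPM (-2.25 ± 0.30). Csmd1, a complement-regulating membrane protein, had 49.6 and 128 CPM against 439 and 409 CPM (-2.03 ± 0.28). The groups were apart in both libraries for each of these 4. The remaining ones were Lifr (-1.78), Steap4 (-1.74, in the replicates -2.82 and -1.25), Cadm2 (-1.68, -2.90 and -1.33), Pcolce (-1.61, -2.68 and -1.11) and Cp (-1.60, -2.63 and -1.29), of which Pcolce enhances procollagen processing like its relative Pcolce2, which was higher. Steap4 (-1.504), Pcolce (-1.32) and Cp (-1.22) were not called under stricter limits on adipocyte and lineage UMIs, which left 27 of the other FAP in replicate 1.

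**Figure D4:**
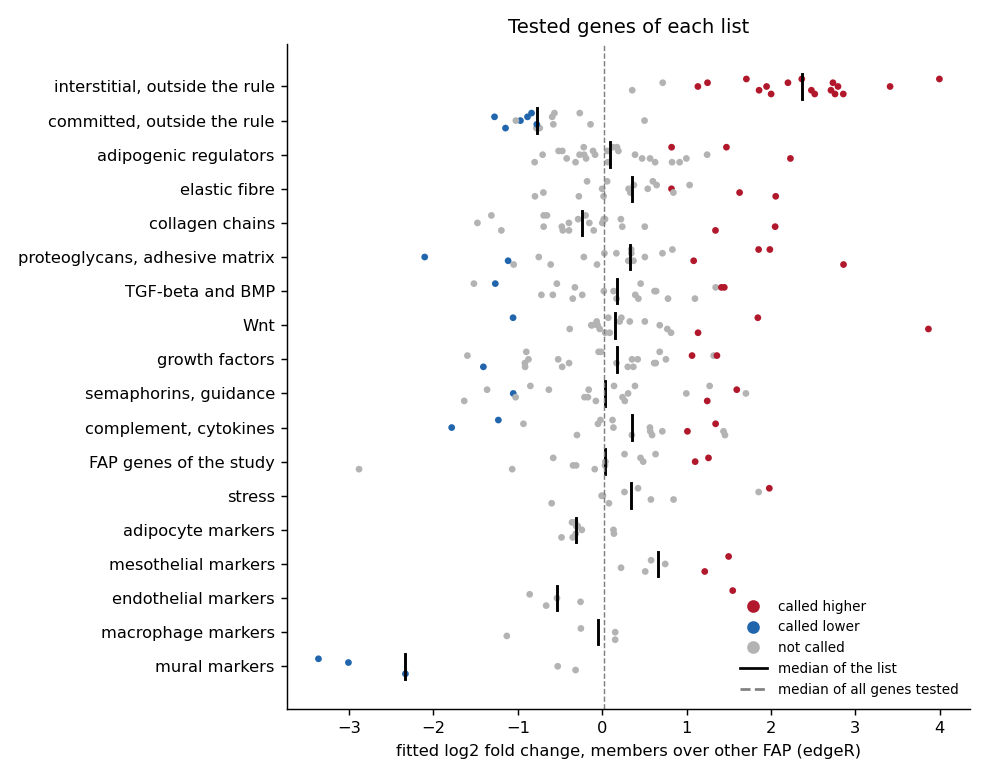
Fitted log2 fold change (members over the other FAP, edgeR) of the tested genes in the 18 lists with at least 4 tested genes; each point is a gene, black bars are list medians and the dashed line is the median of all genes tested, 0.02. The interstitial list has its median at 2.37 and the mural markers at -2.33, and most other lists lie close to the dashed line.

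Of 30 transcriptional regulators of adipogenesis 28 were tested, 3 were higher and 0 lower, against 1.53% and 0.665% of all genes (median 0.10, all genes 0.02). In simulated data of this size 36% of genes with a true log2 of 1 were called, so a gene that was not called may still differ. The changed genes there were well counted and the spread was assumed, so the share does not cover scarce genes. Klf4 was at 307 and 200 CPM in members against 46.2 and 48.9 CPM (log2 2.23 ± 0.32), and Klf2, which represses Pparg, at 412 and 254 CPM against 162 and 94.5 CPM (1.47 ± 0.26). Ebf2, a factor of adipocyte precursors, was at 1944 and 1596 CPM against 912 and 1151 CPM (0.82 ± 0.21), a call that was lost with depth-matched nuclei (0.64), a P of at least 2 (0.799), a FAP sum of at least 10 (0.75) and DESeq2 (0.825). Cebpa, which acts with Pparg late in differentiation, had 52.7 and 25.7 CPM against 104 and 45.6 CPM and was not called (-0.80 ± 0.48). The ratio of Klf2 was similar in the libraries (1.35 and 1.43), and that of Klf4 was larger in replicate 1 (2.73 and 2.03).

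Matrix genes were read in 3 lists, beside the 1.53% higher and 0.665% lower of all genes tested. Of 20 elastic fibre genes 18 were tested and 3 were higher, 0 lower (median 0.35): Emilin2 (459 and 293 CPM against 69.3 and 85.6 CPM, log2 2.06 ± 0.28), the aggrecanase gene Adamts5 (952 and 747 CPM against 243 and 292 CPM, 1.63 ± 0.23) and Adamtsl1 (0.82 ± 0.19). The call of Adamtsl1 ended in 5 of 14 settings, among them without nuclei with mesothelial UMIs (0.53). Of 22 collagen chains, all tested, 2 were higher and 0 lower (median -0.24), which leaves out Col4a1 and Col4a2, called lower with the committed genes. Col14a1, a fibril-associated collagen, had 1401 and 694 CPM against 254 and 211 CPM (2.05 ± 0.23), while Col4a5 (1.34 ± 0.34) rests on 43 UMIs against 1 in replicate 1. Col6a3, a chain of the microfibrillar collagen VI, was not called, at 350 and 350 CPM against 589 and 432 CPM. The call of Col4a5 ended under stricter limits on adipocyte and lineage UMIs (1.35), with DESeq2 (1.69) and without nuclei with mural UMIs (1.26).

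Of 25 proteoglycan and adhesive matrix genes 20 were tested, 4 were higher and 2 lower (median 0.33). Fibronectin, Fn1, had 1637 and 706 CPM in members against 462 and 212 CPM (log2 1.85 ± 0.21), periostin, Postn, 549 and 235 CPM against 173 and 56.7 CPM (1.99 ± 0.26), and the basement membrane linker Nid1 2151 and 1014 CPM against 1120 and 495 CPM (1.08 ± 0.19), beside Has2 from above. Perlecan, Hspg2, was lower, with 288 and 227 CPM against 1097 and 362 CPM (-1.12 ± 0.24), and so was Thbs1 (-2.10 ± 0.50; -3.90 and -1.78 in the replicates), with 2 and 49 UMIs in members, a call lost with depth-matched nuclei (-1.75). Decorin, Dcn, the most abundant of those named, was not called, with 8398 and 4340 CPM against 8582 and 3867 CPM.

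The signalling lists are set beside the 1.53% higher and 0.665% lower of all genes tested. TGF-beta and BMP genes (25, of which 21 tested) gave 2 higher and 1 lower (median 0.17). The receptor gene Tgfbr2 was at 871 and 598 CPM in members against 254 and 266 CPM (log2 1.45 ± 0.23), the secreted glycoprotein gene Fstl1 at 2015 and 1030 CPM against 866 and 389 CPM (1.41 ± 0.19), and the BMP-binding Bmper at 171 and 190 CPM against 474 and 460 CPM (-1.27 ± 0.23). A receptor for TGF-beta was thus higher and an extracellular modulator of BMP lower. Wnt genes (27, of which 20 tested) gave 3 higher and 1 lower (median 0.15). Besides Wnt10b, the secreted Wnt antagonists Sfrp2, at 915 and 407 CPM against 289 and 114 CPM (1.84 ± 0.22), and Sfrp4 (1.14 ± 0.29) were higher, and the receptor gene Ror1 was lower (-1.06 ± 0.24; -1.77 and -0.81 in the replicates). The call of Sfrp4 was lost in 9 of 14 settings, with depth-matched nuclei (0.89), the rule by rate (0.79), a P of at least 2 (1.06), a FAP sum of at least 10 (0.84), DESeq2 (1.08), without nuclei with mural UMIs (1.04) and under stricter limits on adipocyte and lineage UMIs, where its fold change fell to 0.356, and without the block. That of Ror1 ended with DESeq2 (-1.15).

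Growth factor genes (26, of which 23 tested) gave 2 higher and 1 lower (median 0.17). Pdgfd, a ligand of the PDGF beta receptor, was at 415 and 587 CPM against 127 and 262 CPM (log2 1.36 ± 0.24) and Igfbp5 at 1370 and 825 CPM against 681 and 425 CPM (1.06 ± 0.20). Fgf7, a ligand for epithelial FGF receptors, was lower, at 58.9 and 61.8 CPM against 312 and 124 CPM (-1.41 ± 0.34), a call lost with depth-matched nuclei (-1.19), as was that of Igfbp5, which fell to 0.68. Of 20 semaphorin and guidance genes, all tested, 2 were higher and 1 lower (median 0.03). Sema3d, a relative of Sema3c, was at 229 and 159 CPM against 80.9 and 54.5 CPM (1.59 ± 0.31), and Efna5, an ephrin, at 313 and 609 CPM against 104 and 289 CPM (1.24 ± 0.24). Nrp1, a co-receptor for class 3 semaphorins and VEGF, was at 161 and 180 CPM against 427 and 356 CPM (-1.05 ± 0.24), a call lost at similar fold changes with depth-matched nuclei (-0.94), stricter limits on adipocyte and lineage UMIs (-0.99) and DESeq2 (-1.095). DESeq2 also ended the calls of Sema3d (1.596) and Fgf7 (-1.55).

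Complement, cytokine and chemokine genes (22, of which 17 tested) gave 2 higher and 2 lower, against 1.53% and 0.665% of all genes (median 0.35). Among the higher was Ly6a, which encodes the stem cell antigen Sca-1, at 812 and 346 CPM in members against 416 and 126 CPM (log2 1.34 ± 0.22). The cytokine receptor genes Il1r1 (127 and 209 CPM against 427 and 443 CPM, -1.23 ± 0.24) and Lifr (68.2 and 59.1 CPM against 254 and 211 CPM, -1.78 ± 0.30) were lower. Both of the lower genes are receptors. Of 15 genes by which the study itself named FAP groups, ligands or receptors, 14 were tested and 2 were higher, Axl (645 and 506 CPM against 346 and 199 CPM, 1.26 ± 0.22) and Il1rapl1, with 0 lower (median 0.04). The call of Il1rapl1 was lost in 9 of 14 settings, and its sign turned in 1 more, a P of at least 5 (-0.035). That list was chosen on libraries that include these, so it is not independent evidence of a direction. S1pr3 (-2.88 ± 0.76, 3 and 5 UMIs in members) and Angpt1 (-1.07 ± 0.39) were not called. In 4 of the 10 alternative settings with an adjusted p for it, S1pr3 was called lower.

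Immediate early and stress genes (14, of which 10 tested) gave 1 higher, Jun (158 and 150 CPM against 57.8 and 35.6 CPM, log2 1.98 ± 0.36, not called by DESeq2), and 0 lower (median 0.34). The summed list was at 955 and 693 CPM in members and at 912 and 377 CPM in the other FAP, a gap seen mainly in replicate 2. None of 12 cell cycle genes had enough UMIs to be tested, with 7 and 89 UMIs of all 12 in members and 0 and 74 in the other FAP. Cell cycle genes were thus too sparse to compare.

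Markers of other cell types were read for the nuclei inside the gate. Adipocyte markers (10, all tested) gave 0 higher and 0 lower (median -0.31), and none of the 10 was at 0. Their sum was 5134 and 3855 CPM in members and 7484 and 4878 CPM in the other FAP, with Scd1 (replicate 1) and Ghr (replicate 2) the most abundant, against 39845 and 34914 CPM in the adipocyte class. Both FAP groups thus lay far below the adipocyte class, which largely follows from the limits on adipocyte UMIs that set the groups apart. The sum was lower in members than in the other FAP. The adipocyte class held Pparg at 3930 and 4522 CPM and Lpl at 5415 and 2488 CPM. Under stricter limits on adipocyte and lineage UMIs the median of the adipocyte markers went to -0.0098, Pparg from log2 -0.89 to -0.603 and Lpl from -0.78 to -0.42, and both calls ended, as did that of Col4a1. With a FAP sum of at least 10 that median went to -0.0099, while Pparg was at -0.82 and Lpl at -0.77, neither of them called. Macrophage markers (8, of which 4 tested) gave 0 calls (median -0.05), with 161 and 194 CPM in members, 92.4 and 238 CPM in the other FAP and 13321 and 15217 CPM in the macrophage class. Lymphoid markers (7, of which 2 tested; 24.8 and 85.9 CPM against 116 and 141 CPM) and Schwann cell markers (5, of which 1 tested; 21.7 and 19.7 CPM against 92.4 and 86.7 CPM) gave 0 calls as well, with medians of -1.05 and -2.02. Cdh19, the Schwann cell gene tested, was called lower in 3 of 11 alternative settings. These were Fbn1 left out of P (-2.20), a FAP sum of at least 10 (-2.75) and no nuclei with mesothelial UMIs (-2.32).

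Of 8 mesothelial markers 6 were tested, Gpm6a and Muc16 were higher and 0 lower, against 1.53% and 0.665% of all genes (median 0.66), and the sum was 499 and 966 CPM in members, 404 and 482 CPM in the other FAP and 3454 and 2673 CPM in the mesothelial class. Wt1 was the most abundant (192 and 341 CPM against 185 and 226 CPM) and was not called, and Krt7, Krt18 and Bnc1 were at 0 in the other FAP of replicate 1. In nuclei with a P of 0, of 1 to 2, of 3 to 9 and of at least 10 the sum was 149, 625, 475 and 509 CPM in replicate 1 and 287, 636, 1290 and 715 CPM in replicate 2, there highest just above the threshold. A UMI of the keratins, Upk3b, Msln, Lrrn4 or Bnc1 was held by 12.6% and 29.8% of members and by 10.9% and 18.3% of the other FAP. When those nuclei were left out, an alternative chosen after seeing the data, Muc16 went from log2 1.498 to -0.16, Gpm6a from 1.22 to -0.26 and Il1rapl1 from 1.10 to 0.07, all out of the calls. Adamtsl1, at 2313 and 2391 CPM in the mesothelial class, went from 0.82 to 0.53 and out of the calls too, as it did without nuclei with mural UMIs (0.71) and under stricter limits on adipocyte and lineage UMIs (0.59). The calls of Muc16, Gpm6a and Il1rapl1 also ended under those limits (0.81, 0.596 and 0.65), without nuclei with mural UMIs (1.08, 0.95 and 0.948) and with DESeq2 (1.32, 1.16 and 1.318). Those of Gpm6a (1.13) and Il1rapl1 (1.09) ended with depth-matched nuclei, that of Gpm6a with a P of at least 5 (0.66) and that of Il1rapl1 with a FAP sum of at least 10 (1.01). Igfbp6, itself at 3112 and 2072 CPM in the mesothelial class, was as high without them (1.64), as were Igfbp5 (1.41), Smpd3 (3.13) and Tek (1.71), and all 17 interstitial genes were called.

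**Figure D5:**
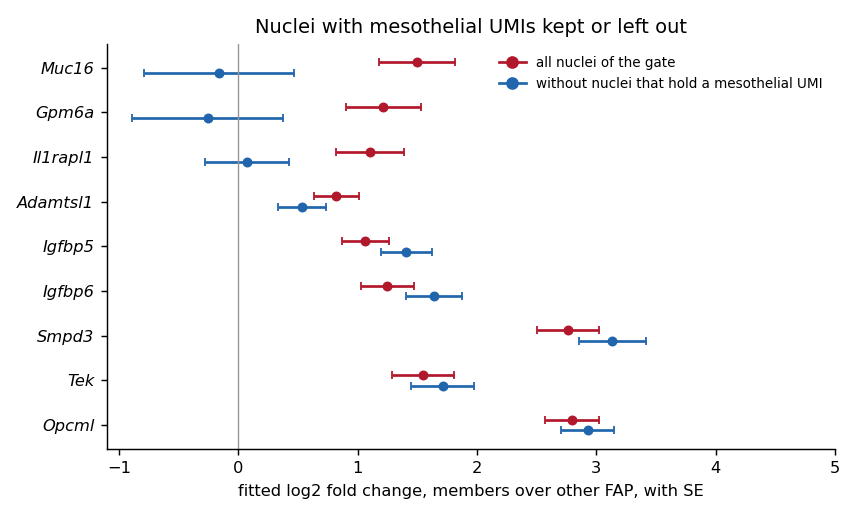
Fitted log2 fold change (members over the other FAP, bars are the SE) of 9 genes with all nuclei of the gate in red and without nuclei that hold a mesothelial UMI in blue. Muc16 (1.498 to -0.16), Gpm6a (1.22 to -0.26) and Il1rapl1 (1.10 to 0.07) lose their rise, and Smpd3, Tek, Igfbp5, Igfbp6 and Opcml keep it.

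Some mural markers were lower in members. Of 8 genes 5 were tested, 0 were higher and 3 lower, Notch3, Rgs5 and Abcc9, against 1.53% and 0.665% of all genes (median -2.33), and the sum was 62.0 and 111 CPM in members against 624 and 383 CPM in the other FAP. Notch3 and Kcnj8 were at 0 in members of replicate 1 and Acta2 at 0 in the other FAP of replicate 1, where Abcc9 was the most abundant. Notch3, a receptor of pericytes and smooth muscle, had 0 and 23 UMIs in members against 15 and 49. With the floor of 3 UMIs in place of 0 it was 18.6-fold lower in replicate 1 (lower limit of the counting interval 13.4). The calls of Notch3 and Rgs5 ended with depth-matched nuclei, at log2 -2.31 and -3.28 (from -3.01 and -3.36), and that of Abcc9 with a FAP sum of at least 10, at -1.93, and under stricter limits on adipocyte and lineage UMIs, at -1.94. Under those limits 2 of the mural markers were tested and 0 were lower. In the other FAP of replicate 1 only 12 nuclei held a mural UMI and 3 held at least 2, so its mural values rest on few nuclei. At least 2 mural UMIs were held by 2.96% and 5.04% of members and by 6.52% and 12.5% of the other FAP. Without any nucleus with a mural UMI, also an alternative chosen after seeing the data, Thsd7a (-1.82), Pappa (-2.07), Lifr (-1.997), Col4a1 (-1.09), Col4a2 (-1.33) and Hspg2 (-0.91) were still lower. Ror1 (-0.93), Vcam1 (-1.15), Pparg (-0.91), Sparcl1 (-0.79) and Thbs1 (-1.78) kept most of their fold change in these fewer nuclei but were no longer called.

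One endothelial marker rose alone. Tek, the angiopoietin receptor, was at 378 and 395 CPM in members against 92.4 and 158 CPM in the other FAP (log2 1.55 ± 0.26, edgeR quasi-likelihood, Benjamini-Hochberg adjusted p = 0.00178), and at 626 and 573 CPM in the endothelial class. The list of 8, of which 5 were tested, gave 1 higher and 0 lower (median -0.54) and summed to 490 and 555 CPM in members, 300.3 and 406 CPM in the other FAP and 9905 and 8587 CPM in the endothelial class, with Tek the most abundant in both FAP groups. Pecam1, a defining endothelial gene, was at 12.4 and 29.0 CPM in members against 1960 and 1195 CPM in the endothelial class, and Flt1 (-0.66 ± 0.49) and Mecom (-0.54 ± 0.44) were not called. Cdh5 and Egfl7 were at 0 in members of replicate 1. Both genes were thus below the endothelial level per UMI in members, Tek by far less than Pecam1.

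Mitochondrial UMIs were more frequent in members than in the other FAP, with medians of 5.72% and 0.977% against 4.70% and 0.745%. A mitochondrial limit of 5% left 57 members and 26 other FAP in replicate 1. With it the calls of Uchl1 (log2 3.15), Ackr2 (2.99), Col4a5 (1.30), Vcam1 (-1.13), Sparcl1 (-0.96), Lpl (-0.71), Pparg (-0.64), Fgf7 (-1.28), Thbs1 (-2.07), Il1rapl1 (1.19), Gpm6a (1.27) and Muc16 (1.42) ended.

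Smaller groups could be described but not tested. FAP with a C of at least 3 that was above P, the mirror image of the members, numbered 12 and 73, and members whose P came from Fbn1 alone numbered 1 and 18, fewer than the 20 per library set for a test. The mirror group held 1874 and 1320 CPM of Col15a1, and the interstitial list summed there to 3564 and 2435 CPM, close to the other FAP as a whole. The 18 members of replicate 2 with Fbn1 alone had a median P of 3 and 3866 CPM of that list, against 5388 CPM in all members of that replicate with a P of 3 to 9. Fbn1 alone thus marked few nuclei.

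In the promoter windows, a window was found for 103 of the 145 higher genes, 47 of the 63 lower and 7401 of the genes tested. Both strands were searched in the 250 bases before the start, and the EBF motif and TATAAA are those of the windows shown for Pi16 and Dpp4. TATAAA was in 10.7% of the windows of higher genes (11), 4.26% of those of lower genes (2), 5.97% of those of genes tested and 12.97% of all 27025 windows. The AP-1 motif TGANTCA was in 4.85%, 6.38%, 3.90% and 6.87%, and CCACACCC, a motif of KLF factors, in 2.91%, 2.13%, 3.04% and 3.19%. The EBF motif was in 0.971%, 0%, 0.919% and 0.788%. Each share of the higher genes other than that of TATAAA lay within 1 percentage point of the share among genes tested, and a match describes letters only.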

How the data were processed

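Nuclei of gonadal fat from 2 mice were measured, with 1 library each, replicate numbers as in the labels. CeleScope was used by the authors for alignment to GRCm39 and for counting, and the deposited matrices hold counts, as whole UMIs of 56980 genes in 7344 and 17148 called nuclei, and counts of reads and UMIs per barcode. The deposited downsampling tables give UMI saturation in percent, 65.79% and 52.77%. The annotation version is not given in the sources used here.

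The filters on nuclei were more than 1000 UMIs, more than 500 genes and less than 15% of UMIs from mitochondrial genes. Doublets were not removed. Members and lists were chosen with earlier results of these data known. UMIs were summed per library and group, filtered by filterByExpr, scaled by TMM and tested with edgeR 4.0.16 (R 4.3.3) over all genes, with the library as a block, after tests on simulated data. Both groups of a number come from the same animal and library, and their deviations correlated across 9475 genes (r = 0.324, Spearman's rho 0.309; genes are not independent replicates). Without the block 0 genes were higher and 0 lower. At an unadjusted p under 0.05 there were 286 and 180, and DESeq2 called 78 and 30 with the block. With 1 library per mouse, 2 mice and the library as a block, p-values measure how alike the group difference was in these 2 libraries. They do not measure the spread of levels between mice.

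Named were all called genes of 21 lists and up to 4 others a list, the 10 genes of largest fold in each direction among those called, with at least 20 UMIs in the higher group of each library, leaving out Gm, Rik and mitochondrial genes, and the genes of the rule. A called gene of these lists is not reported here. Gene positions came from GENCODE vM39 on GRCm39. Alternatives were DESeq2 1.42.0, no filter, no block, depth-matched nuclei and other rules or gates; 3 were added after seeing the data (without mural nuclei, without mesothelial nuclei, DESeq2 without the block). Intervals are 95% and, like the floor of 3 UMIs per library (9.30 and 1.64 CPM in members, 34.6 and 3.33 CPM in the other FAP), cover counting error only. Python 3.11.15, numpy 2.4.6, scipy 1.17.1, pandas 2.3.3 and matplotlib 3.10.9 were used, with random seed 1 for thinning.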

Additional observations from a re-analysis of the deposited data

How the results depend on the processing

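With the replicate block, 145 genes were higher and 63 lower in members. Without it 0 and 0 were (286 and 180 at an unadjusted p under 0.05), DESeq2 with the block gave 78 and 30, and DESeq2 without it 27 and 8. A P of at least 5 gave 236 and 139, leaving Fbn1 out of P 270 and 168, and leaving out nuclei with mesothelial UMIs, chosen after seeing the data, 224 and 114. With no filter on low counts 229 were higher and 58 lower (79.8% of calls higher, against 69.7%), and the median of shared genes moved by 0.16. The other 7 settings of edgeR stayed within 1.5 times of both counts, and in no setting was a called gene called in the opposite direction. The cause of these shifts was not tested. The mean member share, 67.7%, became 55.8% with a P of at least 5 and 77.6% with a P of at least 1, and ranged from 60.8% to 74.6% when either replicate was left out. Il1rapl1 went to log2 -0.035 with a P of at least 5, and without nuclei with mesothelial UMIs Gpm6a went to -0.26 and Muc16 to -0.16. DESeq2 gave no adjusted p for 18 of the named genes, 19 without the block. The committed list had 2 to 9 lower genes across the edgeR alternatives with the block. With 46 other FAP nuclei and 86580 UMIs, replicate 1 limits the depth, and genes at 0 there have only lower bounds. The comparisons with the FAP rich in C and of Fbn1-only members were not run, since replicate 1 held 12 and 1 of those nuclei.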
